A study of Mus musculus with 15 samples.

Results

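Respiratory complex I, the NADH:ubiquinone oxidoreductase of the inner mitochondrial membrane, was described through the transcripts of its nuclear-encoded subunits. Members were the genes whose symbol begins with Nduf followed by a, b, c, s or v and a number, with the assembly factors (Ndufaf) left out. The rule found 37 of the 17594 genes of the deposited table, and no measured value entered it. The libraries were bulk RNA-seq of splenic CD4+ T cells from mice on a C57BL/6 background, sorted into regulatory T cells (Treg, which depend on Foxp3 for their identity) and conventional T cells (Tconv). The study asked how Hpgd, the dehydrogenase that inactivates prostaglandin E2, acts in Treg. Knockout animals (KO) carried a conditional Hpgd allele and Foxp3-Cre-YFP, a driver that acts in cells expressing Foxp3, so that Tconv are not its target. Control animals are labelled wild-type (WT), and no allele or Cre is named for them. There were 4 Treg KO, 4 Treg WT, 4 Tconv KO and 3 Tconv WT libraries, and age is not given in the labels. Neither pooling of animals nor animals common to several samples can be read from the labels, so p-values measure the spread between these samples.

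Complex I takes electrons from NADH through a flavin and a chain of iron-sulfur clusters in its peripheral arm, which projects into the matrix, and passes them to ubiquinone, while the membrane arm pumps protons. Core subunits carry the cofactors and the catalysis, and accessory subunits, placed by structures of the bovine and other mammalian enzymes, surround them. The membrane arm's own core subunits are encoded by mitochondrial DNA. Treg are known to rely on mitochondrial respiration more than activated conventional T cells, and mice whose Treg lack respiratory chain function develop autoimmunity. A transcript level is not a level of assembled enzyme.

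The 37 members fell into 7 core subunits of the peripheral arm, 9 accessory subunits of that arm, 9 of the proximal and 10 of the distal membrane arm, and 2 that share only the name: Ndufa4, now counted as a subunit of cytochrome c oxidase, and its paralog Ndufa4l2. The 7 mitochondrially encoded subunits had 0 rows in the table and were not analysed here. Genes were tested where the normalised read count reached 10 in at least 3 libraries, which 35 of the 37 members did. The other members were Ndufs5, a small intermembrane-space subunit with 2.90, 2.43, 2.15 and 2.67 normalised counts in Treg KO, 2.06, 3.45, 4.07 and 17.7 in Treg WT, 3.496, 4.56, 1.97 and 3.33 in Tconv KO and 3.62, 12.6 and 2.75 in Tconv WT, and Ndufa4l2, with 1 read in all, in Treg KO replicate 2. Of windows of 50 bases in the Ndufs5 transcript, 35.6% also occur in another annotated gene, BC002163, so its counts are uncertain. A level is given below as a normalised count, which is the authors' scaling of read counts to a common library size, and a difference as a log2 difference with its standard error (SE) from limma, with Benjamini-Hochberg adjustment over the 11314 genes tested. A gene passed where its adjusted p was under 0.05.

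Libraries held 3.89 ± 0.896 M reads in Treg KO (SD, range 2.64 to 4.71), 8.35 ± 1.48 in Treg WT (6.43 to 10.0), 5.40 ± 3.41 in Tconv KO (2.95 to 10.3) and 8.77 ± 2.26 in Tconv WT (6.60 to 11.1). Foxp3 averaged 4046 ± 541 in Treg KO, 4502 ± 369 in Treg WT, 40.8 ± 22.5 in Tconv KO and 17.1 ± 3.14 in Tconv WT. Hpgd had 0 reads in Treg KO (a group total of 0 allows up to 0.193 reads per M), 1 read in Treg WT, and 0 reads in Tconv KO (up to 0.139) and Tconv WT (up to 0.114), so its transcript gives no check of the knockout. Such limits cover counting error only. Xist averaged 15567 in Treg KO, 1.84 in Treg WT, 10118 in Tconv KO and 1.67 in Tconv WT, and Y-linked Ddx3y was at 0 in the KO libraries alone, so that genotype, sex and the run of sample numbers in the labels cannot be told apart. Of the other cell types, B cell markers summed to 203 to 326 normalised counts in Treg KO and 95.4 to 151 in Treg WT, over 8 genes with Pax5 at 0 in Treg KO. They summed to 23.7 to 47.2 in Tconv KO and 13.2 to 17.2 in Tconv WT. Markers of CD8 T and NK cells summed to 234 to 374 in Treg KO and 242 to 292 in Treg WT (8 genes, Ncr1 at 0 in either group). The same markers summed to 731 to 2131 in Tconv KO and 795 to 993 in Tconv WT. Markers of Treg (4 genes) summed to 640 to 4062 in Tconv KO and 1065 to 1258 in Tconv WT. Myeloid markers summed to 17.4 to 30.8 in Treg KO, against 26.9 to 51.4 in Treg WT (6 genes with Csf1r at 0 in Treg KO and S100a8 at 0 in Treg WT). Their sums were 38.5 to 75.2 in Tconv KO and 42.6 to 49.7 in Tconv WT. All 8 of 8 cell cycle genes passed as higher in Treg KO, where 10.4% of all tested genes were higher. They summed to 1966 to 2407 in Treg KO, against 579.8 to 1037 in Treg WT. In Tconv, 4 of the 8 passed as higher in Tconv KO, where 0.292% of all tested genes were higher. The 8 genes summed to 1045 to 1736 in Tconv KO and 537 to 626 in Tconv WT. The part of these differences in the results below was not tested. In sorted cells measured in bulk, fewer cells of a type and less RNA per cell cannot be told apart.

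Many complex I subunit transcripts were lower in Treg of the knockout animals than in Treg of the controls, and 1, Ndufa1, was higher. Of 35 tested members, 13 were lower (37.1%, where 11.1% of all tested genes were lower), 1 was higher (2.86%, where 10.4% of all tested genes were higher) and 21 did not pass. The median log2 difference of the members was -0.25, and that of all tested genes was 0.00. The lower members were Ndufv1, Ndufs3 and Ndufs7 of the core, Ndufa2, Ndufa5, Ndufa7, Ndufa9 and Ndufs6 of the peripheral arm's accessory set, Ndufa13 and Ndufc1 of the proximal membrane arm and Ndufb2, Ndufb6 and Ndufb8 of the distal membrane arm. In 10 of these 13 every Treg KO library lay below every Treg WT library (28.6% of tested members, where 13% of all tested genes had groups apart in that direction), and Ndufa1 was the 1 member with groups apart upward (13.2% of all tested genes). The members' levels added up to 7319 ± 649 in Treg KO and 8400 ± 303 in Treg WT.

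**Figure D1:**
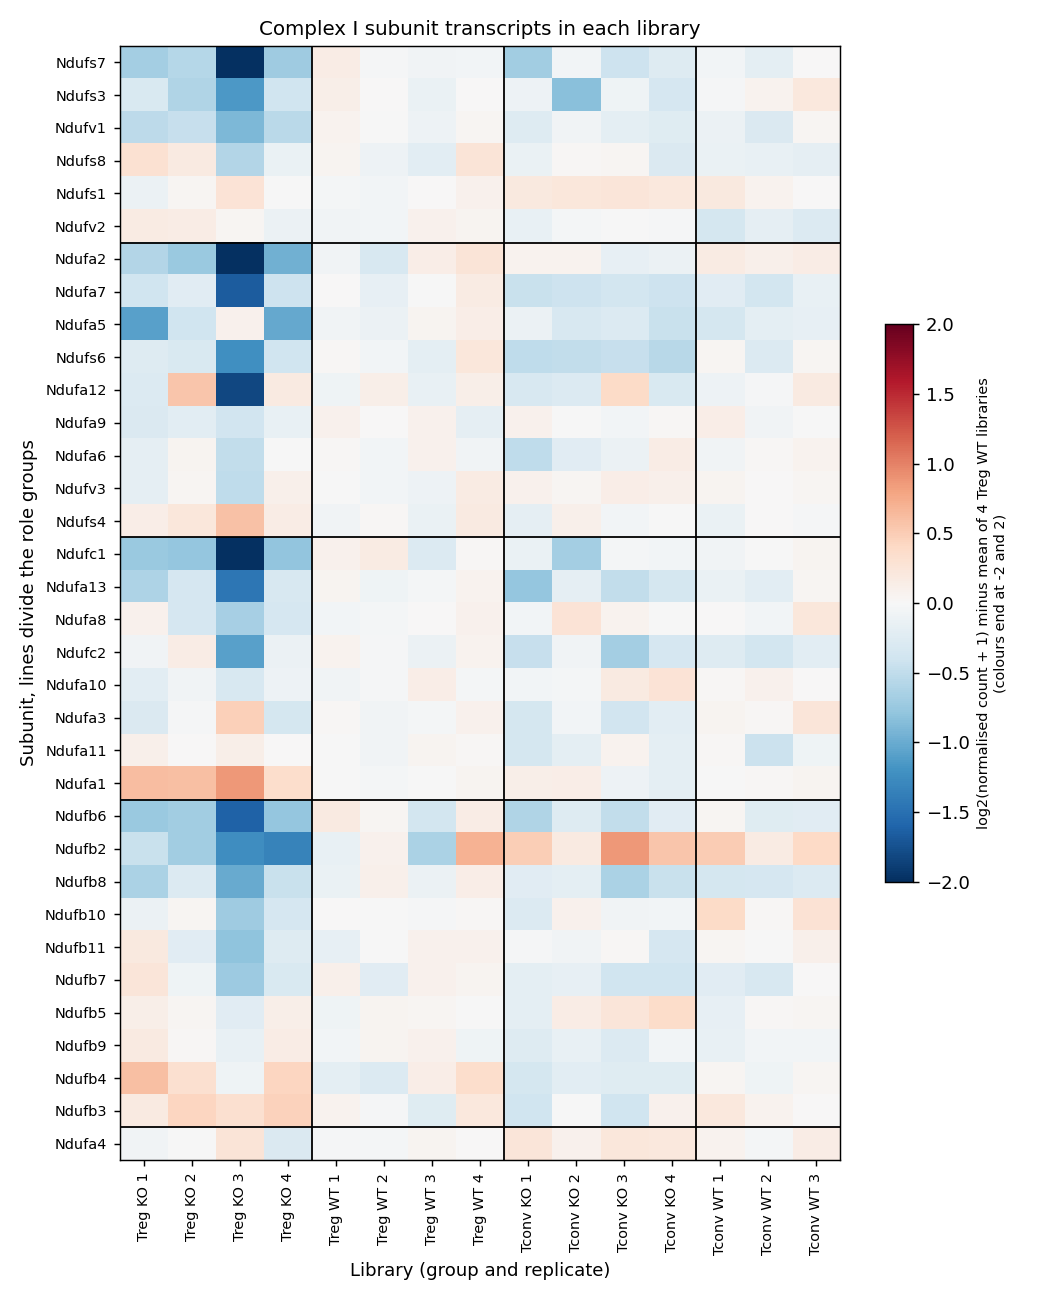
Each cell is the log2(normalised count + 1) of a subunit (rows, grouped by role with the core subunits at the top and Ndufa4 at the bottom) in a library (columns), minus the mean of the 4 Treg WT libraries. The blue cells of Treg KO gather in 13 subunits that were lower, replicate 3 is the darkest column, and the row of Ndufa1 is red in all 4 Treg KO libraries.

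Treg KO replicate 3 stood apart from the other libraries of its group. It held the lowest value of the 4 Treg KO libraries for 25 of the 35 members, where 34.1% of all tested genes had theirs there, and it was the shallowest library, with 2.64 M reads. Its members lay at a median of -0.58 from the Treg WT mean (log2 difference), against -0.07 to -0.26 in the other 3 Treg KO libraries. Transcripts of all genes in the highest quintile of GC content lay at a median of -0.71 in it, against -0.14 to -0.24 in the other 3. Without it, 9 members were lower (8.03% of all tested genes were) and 2 higher (7.31%), and the median difference was -0.13. Ndufs3 (adjusted p = 0.071), Ndufs6 (0.074), Ndufb2 (0.07) and Ndufa9 (0.088) then no longer passed, and Ndufb4 passed as higher (0.044). The count was lower still without some Treg WT libraries: 4 members were lower without Treg WT replicate 1 (6.39% of all tested genes), 7 without replicate 2 (7.76%) and 6 without replicate 4 (6.82%).

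Promoter windows are shown for the lower core subunits Ndufv1 and Ndufs7, the lower accessory subunit Ndufa9 and the higher subunit Ndufa1, to set members that moved in opposite directions side by side. Each is 300 bases around the RefSeq transcription start on GRCm38.p6, written along the gene's strand, and the capitals mark a match to the motif named.
Ndufv1, chr19:4012706-4013005 on the minus strand, no match: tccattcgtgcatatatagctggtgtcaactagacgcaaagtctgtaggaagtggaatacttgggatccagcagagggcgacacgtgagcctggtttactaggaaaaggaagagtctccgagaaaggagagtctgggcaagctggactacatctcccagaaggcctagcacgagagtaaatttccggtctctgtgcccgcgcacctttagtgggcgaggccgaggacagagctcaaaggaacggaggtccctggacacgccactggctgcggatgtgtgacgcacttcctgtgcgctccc
Ndufs7, chr10:80249199-80249498 on the plus strand, YY1 motif at bases 275 to 283: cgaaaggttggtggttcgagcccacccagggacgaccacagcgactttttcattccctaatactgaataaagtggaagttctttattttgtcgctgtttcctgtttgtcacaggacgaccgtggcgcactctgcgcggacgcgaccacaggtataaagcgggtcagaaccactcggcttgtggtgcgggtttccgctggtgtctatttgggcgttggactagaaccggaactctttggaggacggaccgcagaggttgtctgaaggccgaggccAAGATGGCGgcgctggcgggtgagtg
Ndufa9, chr6:126849095-126849394 on the minus strand, YY1 motif at bases 280 to 288: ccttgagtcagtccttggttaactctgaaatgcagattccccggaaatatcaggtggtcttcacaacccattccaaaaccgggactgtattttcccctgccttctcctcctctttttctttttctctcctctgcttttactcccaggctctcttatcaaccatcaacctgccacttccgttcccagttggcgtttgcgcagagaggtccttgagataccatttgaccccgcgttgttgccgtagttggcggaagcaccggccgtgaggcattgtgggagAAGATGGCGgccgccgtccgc
Ndufa1, chrX:37191189-37191488 on the minus strand, GC box on the other strand at bases 26 to 31: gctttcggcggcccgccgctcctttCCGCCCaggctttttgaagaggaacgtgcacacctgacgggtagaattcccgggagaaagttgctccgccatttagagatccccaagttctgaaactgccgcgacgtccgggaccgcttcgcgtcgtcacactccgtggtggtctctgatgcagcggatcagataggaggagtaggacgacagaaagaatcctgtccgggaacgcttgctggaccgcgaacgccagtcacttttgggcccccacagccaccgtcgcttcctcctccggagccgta
The RefSeq start of Ndufv1 lies 89 bases and that of Ndufa1 75 bases from the GENCODE start. Windows were found for 32 members and 13386 genes in all, and 7 motifs were searched on either strand. The YY1 motif AAGATGGCG was in 5 of the 32 members' windows (15.6%), those of Ndufa9, Ndufc1, Ndufs4, Ndufs6 and Ndufs7, and in 2.57% of all windows. It was in 4 of the 12 windows of members lower in Treg KO and in 1 of the 19 of tested members that were not lower. The NRF1 motif was in 7 of 32 windows (21.9%) and in 8.41% of all, and the CREB motif TGACGTCA in 3 of 32 (9.38%) and in 2.84% of all. The ETS motif CCGGAAG (4 of 32, against 15.2% of all), the GC box GGGCGG (14 of 32, against 57.2%), the CCAAT box (10 of 32, against 38.1%) and the ERR motif TCAAGGTCA (0 of 32, against 0.254%) were the others searched. Split in the same way, the NRF1 motif was in 2 of the 12 lower windows and 4 of the 19 not lower. The CREB motif was in 1 and 2, the ETS motif in 2 and 2 and the GC box in 5 and 9. The CCAAT box was in 3 and 7 and the ERR motif in 0 and 0. YY1 was thus singled out after all 7 splits were seen. These matches describe the letters of the windows and were not tested.

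Among the 7 core subunits of the peripheral arm, 3 were lower in Treg KO and 0 higher, with a median log2 difference of -0.15. Ndufv1, the subunit that binds NADH and the flavin, had normalised counts of 257, 271, 198 and 255 in Treg KO, against 388, 371, 344 and 383 in Treg WT. All 4 Treg KO libraries lay below all Treg WT libraries, and replicate 3 was the lowest. The log2 difference was -0.61 ± 0.10 (SE, adjusted p = 0.0012), the smallest adjusted p among the members, and the call held under each alternative run, with adjusted p between 2.6e-06 and 0.0096. Ndufs7, an iron-sulfur subunit that lines the ubiquinone pocket, had 165, 178, 43.1 and 162 in Treg KO, against 293, 261, 251.3 and 254 in Treg WT. The groups did not overlap, and Treg KO replicate 3 lay far under the other 3 libraries. It differed by -1.13 ± 0.32 (SE, adjusted p = 0.023), and by -0.65 (adjusted p = 0.0038) without that library. The call of Ndufs7 ended with only the groups compared (adjusted p = 0.072) and with GC and length trends removed (0.067). It also ended without Treg WT replicate 1 (0.064) or 4 (0.051). Ndufs3, a core subunit of the ubiquinone-reducing part, had 144, 116, 79.7 and 135 in Treg KO, against 193, 179, 162 and 179 in Treg WT, again without overlap, and differed by -0.61 ± 0.18 (SE, adjusted p = 0.026). Of windows of 50 bases in its transcript, 39.7% also occur in other annotated genes (among them Kbtbd4 on the opposite strand), so its counts are uncertain, whereas Ndufv1 and Ndufs7 share 0%.

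The other 4 core subunits did not pass in Treg. Ndufs1, the largest subunit with several iron-sulfur clusters, averaged 469 ± 54.5 in Treg KO and 454 ± 20.1 in Treg WT (SD, n = 4 each; log2 difference 0.04, adjusted p = 0.72). Ndufv2, which sits beside Ndufv1 and holds an iron-sulfur cluster, differed by 0.06 (95% interval -0.11 to 0.22), and Ndufs8, which holds the clusters on the way to ubiquinone, by -0.05 (-0.40 to 0.29). Within the NADH-binding part of the arm, Ndufv1 was thus the 1 of 3 core subunits that passed.

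Of the 9 accessory subunits of the peripheral arm, 5 were lower and 0 higher, with a median of -0.34. Ndufa2, a small subunit with a thioredoxin-like fold, had 184, 166, 68.9 and 142 in Treg KO, against 265, 222, 303 and 332 in Treg WT. Treg KO replicate 3 was again the lowest, and the highest Treg KO library lay under the lowest Treg WT library. The log2 difference was -1.07 ± 0.22 (SE, adjusted p = 0.0053) and, without that library, -0.76 (adjusted p = 0.0015). Ndufs6, a zinc-binding subunit, had 102, 98.3, 51.7 and 92.3 in Treg KO, against 124, 118, 106 and 143 in Treg WT, groups that were apart by a few counts, and differed by -0.55 ± 0.18 (SE, adjusted p = 0.04). Ndufa9, a dehydrogenase-like subunit at the joint of the arms, had 274, 291, 259 and 305 in Treg KO, against 358, 337, 358 and 295 in Treg WT. Treg KO replicate 4 lay above the lowest Treg WT library, and the difference of -0.25 ± 0.08 (SE, adjusted p = 0.037) was the smallest of those that passed. Ndufa7 and Ndufa5, small subunits of the same arm, passed last and are named here after their values were seen.

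Ndufa7 had 193, 217, 79.7 and 191 in Treg KO, against 255, 228, 252 and 285 in Treg WT and differed by -0.67 ± 0.22 (SE, adjusted p = 0.043). Ndufa5 had 52.2, 84.9, 118 and 54.8 in Treg KO, against 106, 103, 117 and 123 in Treg WT, with Treg KO replicate 3 inside the Treg WT range and the other 3 libraries under it, and differed by -0.61 ± 0.20 (SE, adjusted p = 0.044). Replicate 3 was thus the highest Treg KO library for Ndufa5 and the lowest for Ndufa7. When single libraries were left out in turn, 11 of 15 runs ended the call of Ndufa5, 9 that of Ndufa7 and 7 that of Ndufs6, more than for any other lower member; over those runs the largest adjusted p was 0.11 for Ndufa5, 0.11 for Ndufa7 and 0.12 for Ndufs6. The 4 accessory subunits that did not pass were Ndufa6 (-0.16), an LYR-motif protein that holds an acyl carrier, Ndufv3 (-0.14), Ndufa12 (-0.34) and Ndufs4 (0.27), a late-joining subunit whose loss causes Leigh syndrome in humans. Ndufa12 had 52.2, 93.4, 17.2 and 72.2 in Treg KO and 59.6, 69.0, 57.0 and 69.2 in Treg WT, and 53.8% of its 50-base windows occur in another annotated gene.

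The membrane arm held the subunit that was higher as well as 5 that were lower. In its proximal part, 2 of 8 tested members were lower and 1 higher (median -0.23). Ndufa1, a small X-linked membrane subunit needed for assembly of the enzyme in hamster and human cells (chromosome X, 37187588 to 37191163 on GRCm38), had 249.5, 247, 297 and 209 in Treg KO, against 162, 159, 161 and 168 in Treg WT. The lowest Treg KO library lay above the highest Treg WT library, and replicate 3 was here the highest. It differed by 0.61 ± 0.11 (SE, adjusted p = 0.0017), and the call held under each alternative run, with adjusted p between 5.2e-06 and 0.011. In Tconv, Ndufa1 had 177, 179, 152 and 141 in Tconv KO, against 162, 165 and 168 in Tconv WT, overlapping groups and a log2 difference of -0.03 (95% interval -0.28 to 0.21, adjusted p = 0.93). Ndufb11, the other X-linked member (chromosome X, 20615326 to 20617619), had 397, 295, 198 and 289 in Treg KO, against 310.4, 344, 369 and 367 in Treg WT, overlapping groups with replicate 1 the highest Treg KO library, and differed by -0.28 ± 0.15 (SE, adjusted p = 0.21).

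Ndufc1, a small membrane subunit, had 26.1, 25.5, 6.46 and 25.4 in Treg KO, against 47.3, 49.7, 36.6 and 45.2 in Treg WT, and Treg KO replicate 3 with its few counts lay far under the other 3. It differed by -1.23 ± 0.34 (SE, adjusted p = 0.019), and by -0.77 (adjusted p = 0.012) without that library. Ndufa13, also known as Grim19, had 236, 289.9, 134 and 293 in Treg KO, against 379, 343, 356 and 384 in Treg WT, with no overlap, and differed by -0.68 ± 0.20 (SE, adjusted p = 0.024). It lies 13.6 Mb from Hpgd on chromosome 8, and 28.5% of its windows are shared, with Tssk6 on the opposite strand and Gm12389. Ndufb7, the other member on chromosome 8, lies 27.2 Mb from Hpgd and did not pass (-0.22, adjusted p = 0.33). Of the other proximal members, Ndufa8 differed by -0.31, Ndufc2 by -0.29, Ndufa10 by -0.18, Ndufa3 by -0.05 and Ndufa11 by 0.06, and none of them passed.

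In the distal membrane arm 3 of 10 members were lower and 0 higher (median -0.25). Ndufb6 had 68.2, 70.4, 36.6 and 66.9 in Treg KO, against 130.2, 117, 88.4 and 128 in Treg WT, with every Treg KO library under the Treg WT range, and differed by -0.96 ± 0.19 (SE, adjusted p = 0.0044), and by -0.73 (adjusted p = 0.005) without Treg KO replicate 3. That call held under each alternative run, although 31.1% of its windows are shared with Smim27 on the opposite strand. Ndufb8 had 141, 181, 108 and 159 in Treg KO, against 199, 235, 201 and 240.3 in Treg WT, also without overlap, and differed by -0.59 ± 0.14 (SE, adjusted p = 0.011). Ndufb2, the tested member with the lowest mean level per length, had 23.2, 19.4, 12.9 and 12.04 in Treg KO, against 28.8, 33.8, 20.4 and 52.3 in Treg WT, with overlap through Treg WT replicate 3, and differed by -0.93 ± 0.27 (SE, adjusted p = 0.027). Of its windows 33.5% occur in other annotated genes, and its exons overlap Gm42420 on the same strand, so its counts and its place among the levels are uncertain. The remaining distal members ran from -0.28 for Ndufb10 to 0.35 for Ndufb3 (adjusted p = 0.15 and 0.068), with Ndufb11, Ndufb7, Ndufb5, Ndufb9 and Ndufb4 between them. Ndufa4 of cytochrome c oxidase did not pass (-0.03, adjusted p = 0.85).

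**Figure D2:**
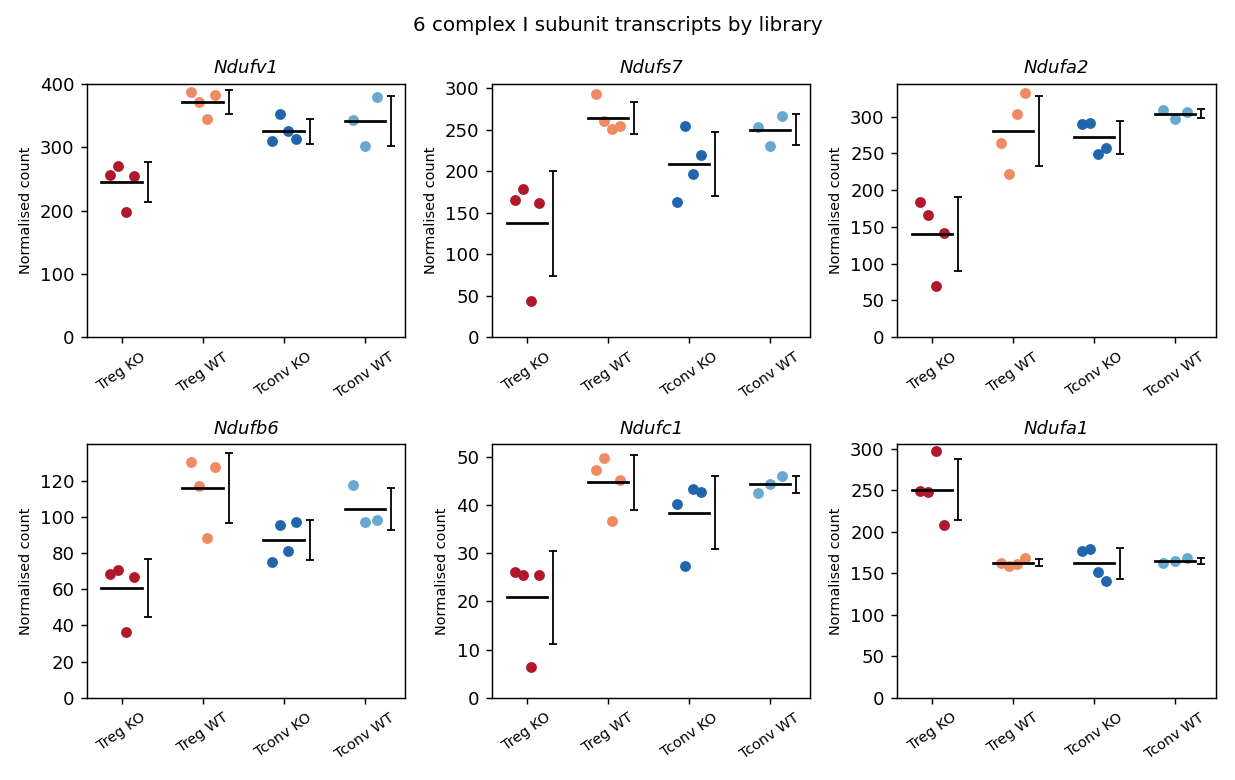
Normalised counts (vertical axes, from 0) of 6 subunits in the libraries of each group; points are libraries, the horizontal line is the mean and the bar beside it the SD. In Treg KO the points lie under all Treg WT points for Ndufv1, Ndufs7, Ndufa2, Ndufb6 and Ndufc1 and above them for Ndufa1, while the Tconv KO and Tconv WT points are closer together.

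In Tconv of KO against WT animals no member passed. By limma 0 of 35 were higher (0.292% of all tested genes were) and 0 lower (0.389%), with 5 members at an unadjusted p under 0.05, and edgeR and DESeq2 on the whole reads called 0 as well. The median log2 difference was -0.10. The smallest adjusted p was that of Ndufv2, with 278, 299, 304 and 301 in Tconv KO, against 241, 270.4 and 254 in Tconv WT, groups that did not overlap, and a difference of 0.21 ± 0.08 (SE, adjusted p = 0.32). The lowest estimate was that of Ndufs6, with 85.7, 86.6, 88.7 and 82.8 in Tconv KO, against 126, 101 and 126 in Tconv WT, where all Tconv KO libraries lay under the Tconv WT libraries (-0.44, adjusted p = 0.38). In 6 members the Tconv KO libraries all lay under the Tconv WT libraries (8.54% of all tested genes) and in 2 above them (7.79%).

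In Tconv, 4 members that were lower in Treg KO had estimates nearer 0. Ndufv1 had 309, 353, 325 and 313 in Tconv KO, against 343, 302 and 380.0 in Tconv WT, overlapping groups and a difference of -0.07 (95% interval -0.30 to 0.16). Ndufs7 had 163, 254, 197 and 220.1 in Tconv KO, against 254, 230.3 and 267 in Tconv WT, overlapping groups and a difference of -0.28 (-1.03 to 0.47). Ndufa2 had 290.2, 291, 248 and 257 in Tconv KO, against 309, 297 and 306 in Tconv WT, with each Tconv KO library below the Tconv WT libraries by a small margin, and a difference of -0.17 (-0.68 to 0.35). Ndufb6 had 75.2, 95.7, 80.8 and 97.3 in Tconv KO, against 118, 97.0 and 98.3 in Tconv WT, groups that overlapped by Tconv KO replicate 4 alone, and a difference of -0.26 (-0.70 to 0.19). Each of these 4 intervals includes 0, and those of Ndufs7, Ndufa2 and Ndufb6 reach down to a log2 difference of -0.68 or lower.

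Other members lower in Treg KO had these counts in Tconv. Ndufs3 had 166, 99.1, 168 and 141 in Tconv KO, against 175, 188 and 205 in Tconv WT, apart, with Tconv KO replicate 2 the lowest (-0.43, adjusted p = 0.4). Ndufc1 had 40.2, 27.3, 43.4 and 42.8 in Tconv KO, against 42.5, 44.3 and 46.0 in Tconv WT, where Tconv KO replicate 2 was low and the others lay beside Tconv WT (-0.22, adjusted p = 0.84). Ndufa13 had 213, 324, 260.2 and 286 in Tconv KO, against 332, 317 and 376 in Tconv WT, with overlap (-0.35, adjusted p = 0.52). None of these 3 passed, and in each the lowest library was a Tconv KO one. Ndufb8 had 187, 190.3, 140.0 and 159.5 in Tconv KO, against 171, 172 and 180.1 in Tconv WT and overlapped (-0.05, adjusted p = 0.92). Ndufb2 had 45.4, 36.5, 59.1 and 47.2 in Tconv KO, against 46.1, 35.8 and 42.6 in Tconv WT, also with overlap (0.16, adjusted p = 0.85). Ndufa9 had 358, 334, 323 and 340.1 in Tconv KO, against 371, 321 and 336 in Tconv WT and overlapped (-0.01, adjusted p = 0.96). X-linked Ndufb11 had 343, 332, 353 and 273 in Tconv KO, against 357, 345 and 373 in Tconv WT, with Tconv KO replicate 4 the lowest library (-0.15, adjusted p = 0.75).

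**Figure D3:**
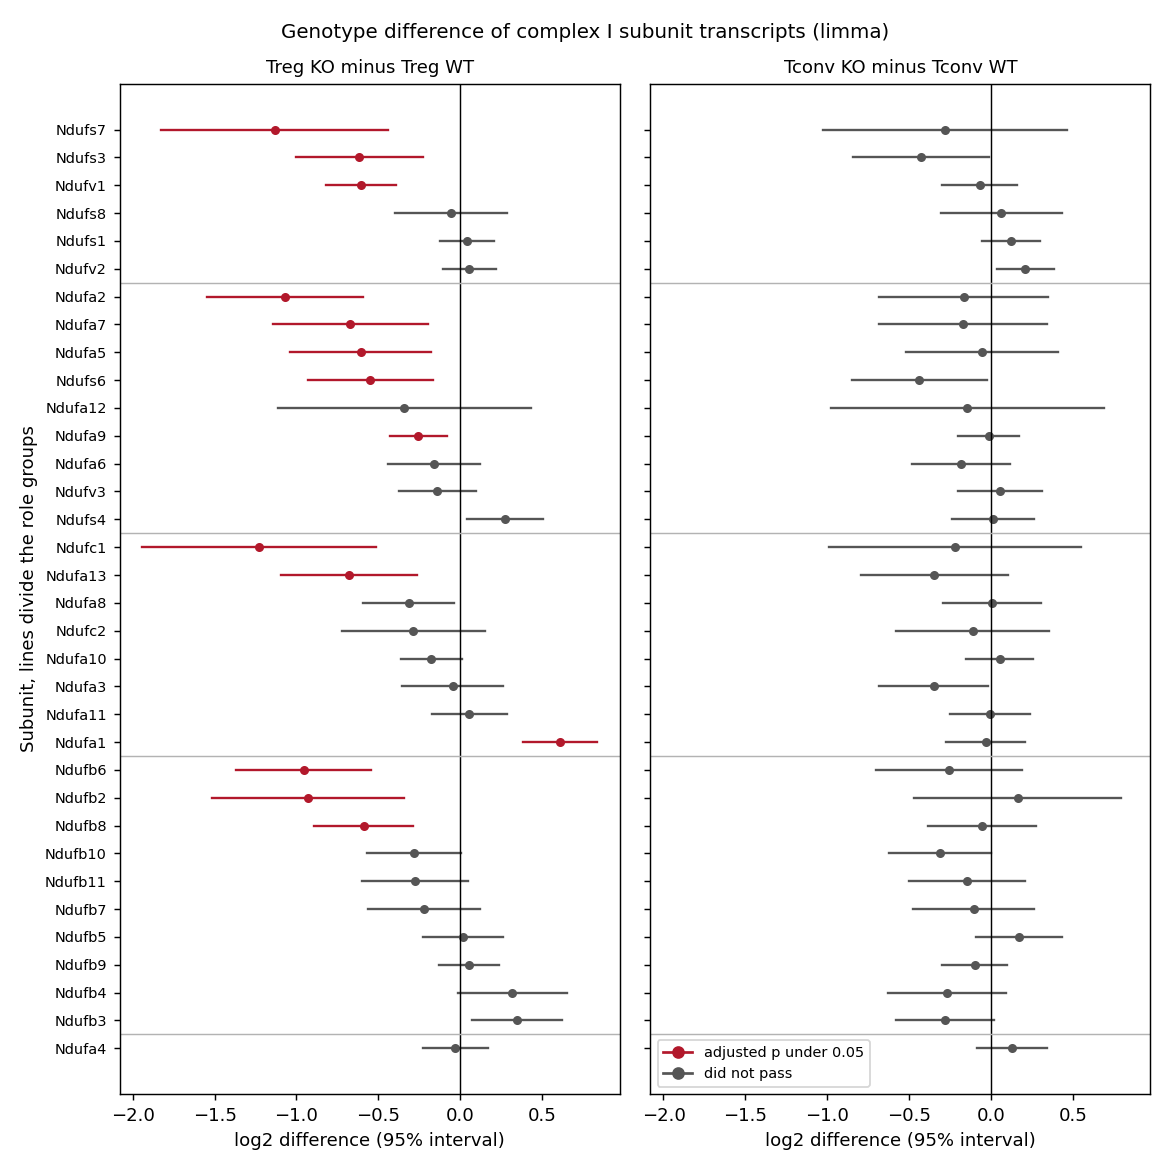
Points are log2 differences of 34 members from limma, KO minus WT, in Treg on the left and Tconv on the right, with 95% intervals; red marks an adjusted p under 0.05. In Treg 13 members lie to the left of 0 in red and Ndufa1 to the right, and in Tconv no member is red.

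Whether the genotype difference in Treg differed from that in Tconv was tested by the interaction in the same fit, and 0 of 35 members passed by limma in either direction (0.0354% of all tested genes were higher and 0.115% lower). At an unadjusted p under 0.05 there were 8 members, edgeR called 0 and DESeq2 called 1, Ndufa1 as higher. Ndufa1 had the smallest adjusted p, with an interaction of 0.64 ± 0.16 (SE, adjusted p = 0.17), followed by Ndufv1 with -0.54 ± 0.15 (SE, adjusted p = 0.26) and Ndufb3 with 0.63 ± 0.19 (SE, adjusted p = 0.32). The members' median interaction was -0.16. The Treg differences are therefore not shown to differ from those in Tconv, and the 95% interval of the interaction ran from -0.85 to -0.23 for Ndufv1 and from 0.31 to 0.98 for Ndufa1.

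Between the cell types of control animals, 1 complex I transcript passed. In Treg WT against Tconv WT, 1 of 35 members was higher (10.0% of all tested genes were) and 0 were lower (8.06%), and the median log2 difference was 0.00. Groups did not overlap in 4 members upward (20.6% of all tested genes) and 1 downward (20.5%). By limma 1 member in all had an unadjusted p under 0.05, and edgeR and DESeq2 each called 1. The higher member was Ndufv2, with 291, 296, 325 and 317 in Treg WT, against 241, 270.4 and 254 in Tconv WT. The groups did not overlap, and the difference was 0.27 ± 0.08 (SE, adjusted p = 0.034). It lost the call without any of 5 single libraries, Treg WT replicates 2, 3 or 4 or Tconv WT replicates 1 or 3, with adjusted p up to 0.15.

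In the knockout animals 13 members differed between the cell types. In Treg KO against Tconv KO, 5 of 35 were higher (14.3%, where 15.8% of all tested genes were higher) and 8 lower (22.9%, where 15.6% were lower), with a median of -0.20. Groups did not overlap in 4 members upward (12.2% of all tested genes) and 8 downward (11.9%). This contrast shares the Treg KO libraries with the genotype contrast in Treg. The lower members were Ndufb2 (-1.45, adjusted p = 0.00092), Ndufa2 (-1.04, adjusted p = 0.0026), Ndufc1 (-1.001, adjusted p = 0.033), Ndufb6 (-0.56, adjusted p = 0.04), Ndufv1 (-0.41, adjusted p = 0.0052), Ndufa8 (-0.39, adjusted p = 0.034), Ndufa10 (-0.27, adjusted p = 0.031) and Ndufa9 (-0.27, adjusted p = 0.021). Among the higher members, Ndufa1 differed by 0.62 ± 0.11 (SE, adjusted p = 0.0004). Ndufb4 had 144, 118, 88.3 and 127 in Treg KO, against 73.4, 80.9, 78.9 and 78.9 in Tconv KO, without overlap, and differed by 0.58 ± 0.16 (SE, adjusted p = 0.01). Ndufb3 had 179.9, 215, 198 and 221 in Treg KO, against 121, 158, 120.3 and 169 in Tconv KO, also without overlap, and differed by 0.53 ± 0.13 (SE, adjusted p = 0.0061). Ndufs4 (0.31, adjusted p = 0.041) and Ndufb9 (0.24, adjusted p = 0.044) were higher too. When single libraries were left out in turn, 12 of 15 runs ended the call of Ndufb9, 9 that of Ndufs4 and 7 that of Ndufb6. Ndufs4 and Ndufb9 did not pass with edgeR (adjusted p = 0.053 and 0.052) or DESeq2 (0.051 and 0.069). Of the transcript windows of Ndufb4, 37.0% occur in other annotated genes. Without Treg KO replicate 3, 5 members were higher (15.3% of all tested genes) and 8 lower (15.4%), and the median was -0.04. Of these 13 calls, 9 were among the 13 above. Ndufa8, Ndufa10, Ndufb6 and Ndufs4 no longer passed, while Ndufa4, Ndufa5, Ndufc2 and Ndufs1 did. With only the groups compared in the fit, 3 were higher (9.502% of all tested genes) and 3 lower (8.55%) here. In Treg WT against Tconv WT that setting gave 4 higher (18.2% of all tested genes) and 1 lower (17.0%). Without Tconv KO replicate 3, 4 members were lower (12.4% of all tested genes), and without Tconv KO replicate 4, 5 were (13.5%).

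Levels were compared between members per kilobase of transcript. In Treg WT the 35 tested members ran from 74.3 to 870.3 normalised counts per kb with a median of 322, and in Treg KO from 37.1 to 786 with a median of 245. Ndufa6, the highest member by the mean of the 4 groups, stood at 786 ± 128 counts per kb in Treg KO, 870.3 ± 45.4 in Treg WT, 780.2 ± 149 in Tconv KO and 874 ± 43.2 in Tconv WT. Its normalised counts were 292, 343, 235 and 332 in Treg KO, against 339, 321, 354 and 316 in Treg WT, 232, 283, 308 and 369.6 in Tconv KO and 316, 336 and 349 in Tconv WT, so the groups overlapped. Ndufa4 was next by that mean, at 761 ± 120.0 in Treg KO, 769.9 ± 22.9 in Treg WT, 879 ± 40.6 in Tconv KO, where it lay above Ndufa6, and 804 ± 53.1 in Tconv WT. Of the 34 neighbouring pairs in the order of Treg WT means, the library ranges of 31 overlapped, and in the order of Treg KO means those of 33. Ndufb2, the lowest tested member by the mean of the 4 groups, stood at 37.1 ± 11.7 counts per kb in Treg KO, 74.3 ± 29.7 in Treg WT, 103 ± 20.5 in Tconv KO and 91.2 ± 11.46 in Tconv WT, and in Tconv KO Ndufb4 lay below it, at 80.4 ± 3.31. As a description across the 35 members, which share libraries and lengths, the rank correlation of levels per kb was 0.98 between Treg WT and Tconv WT, 0.98 between Tconv KO and Tconv WT and 0.87 between Treg KO and Treg WT. The members also varied more among Treg KO libraries: the median coefficient of variation was 21.5% in Treg KO, 7.29% in Treg WT, 10.7% in Tconv KO and 7.07% in Tconv WT, and it was over 20% in 19 members in Treg KO, 2 in Treg WT, 2 in Tconv KO and 0 in Tconv WT.

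**Figure D4:**
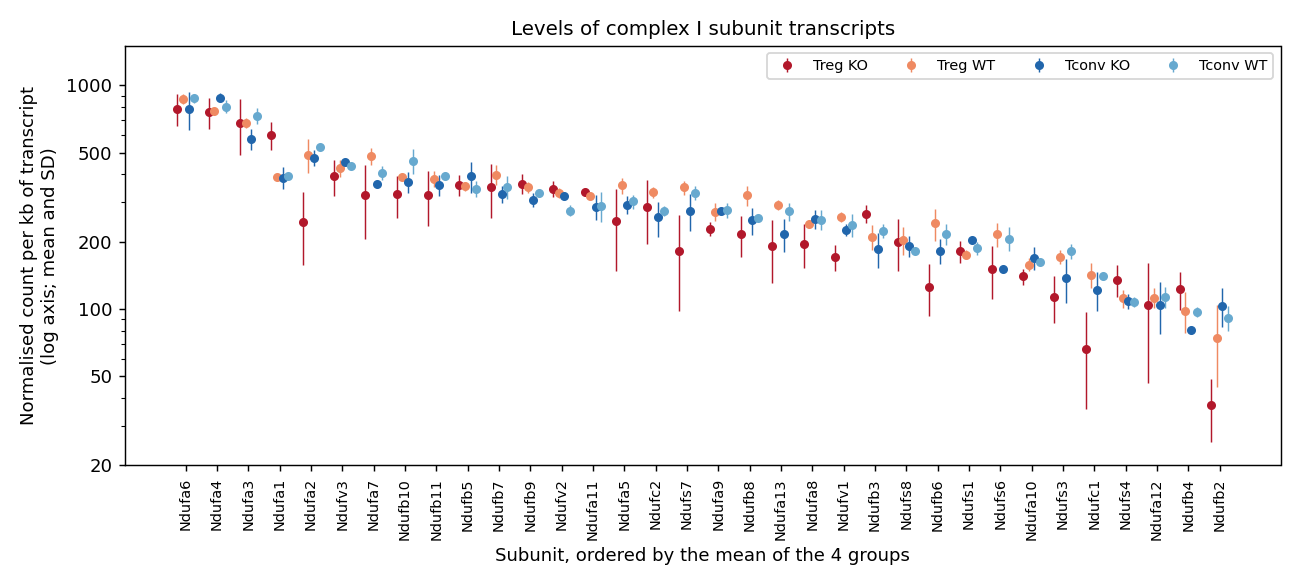
Normalised count per kb of transcript on a log axis for 34 of the tested members, ordered by the mean of the 4 groups; points are group means and bars the SD over libraries. By that mean Ndufa6 comes first and Ndufb2 last, while in Tconv KO Ndufa4 lies above Ndufa6 and Ndufb4 below Ndufb2; the Treg KO points leave the other groups downward for members such as Ndufa2, Ndufs7 and Ndufc1.

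The members are short transcripts, with a median length of 680 bases where all tested genes have 2492, and 30 of the 35 lie in the shortest quintile of all tested genes. In that quintile the median log2 difference in Treg KO against Treg WT was -0.28 for the members and -0.12 for all genes. Their median GC content was 52.5%, against 50.6% in all tested genes. Across genes the Treg difference ran with GC content: Pearson's r was -0.45 over the 35 members and -0.36 over 11220 genes. The rank correlation had the other order, at -0.35 over the members and -0.51 over all genes. In Tconv KO against Tconv WT, Pearson's r was -0.41 over the members and -0.22 over all genes, and the rank correlations were -0.38 and -0.38. All points in each of these correlations share the same libraries. In the lowest quintile of GC content the 1 member differed by 0.27 (median of all genes 0.20), and in the next the median difference was 0.05 for 6 members and 0.13 for all genes. In the third quintile it was -0.31 for 10 members and 0.03 for all genes, in the fourth -0.31 for 13 members and -0.11 for all genes, and in the highest -0.22 for 5 members and -0.31 for all genes. With the trend on GC content removed, 7 members were lower in Treg KO (7.01% of all tested genes were), and with the trend on length removed 8 (10.0%). With the trends on GC and length both removed, a setting chosen after seeing the data, 4 were lower (6.85% of all tested genes): Ndufv1, Ndufa2, Ndufb6 and Ndufc1. Ndufa1 passed as higher under all 3, Ndufb3 and Ndufs4 with the length trend removed, and Ndufa11 (0.46) and Ndufb9 (0.31) passed as higher with GC and length both removed.

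**Figure D5:**
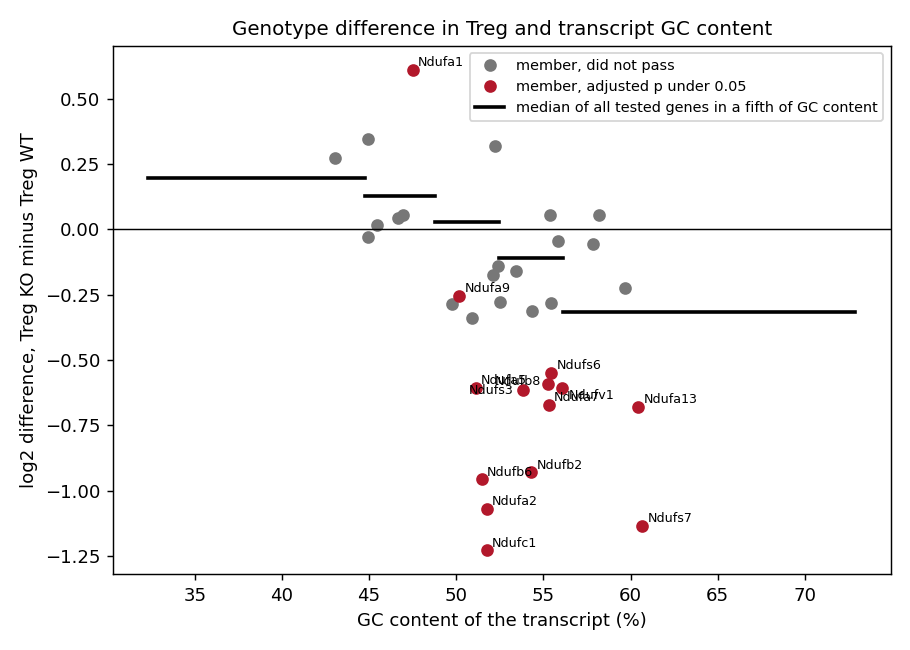
Log2 difference in Treg KO minus Treg WT (vertical axis) against GC content of the transcript in percent (horizontal axis) for 34 of the tested members, red where the adjusted p was under 0.05; black lines are medians of all tested genes within quintiles of GC content. Ndufs7 and Ndufa13, at the highest GC content of the red points, and Ndufc1, Ndufa2 and Ndufb6, at 51.5 to 51.7%, all lie below the black lines. With the GC trend removed in limma, Ndufa13 no longer passed (-0.26, adjusted p = 0.12), while Ndufs7 did (-0.71, adjusted p = 0.043).

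Genes around complex I were described by lists chosen beside the members. Of 16 tested complex I assembly factors, 3 were higher (18.8%, where 10.4% of all tested genes were) and 2 lower (12.5%, where 11.1% were) in Treg KO than in Treg WT (median 0.03), so the share lower is near that of all genes. Ndufaf2, which joins late in assembly, averaged 48.1 ± 12.8 in Treg KO and 27.7 ± 2.47 in Treg WT (SD, n = 4 each; log2 difference 0.74, adjusted p = 0.029). Tmem126b, of the assembly complex for the membrane arm, averaged 100.04 ± 27.2 in Treg KO and 68.2 ± 8.81 in Treg WT (0.52, adjusted p = 0.037). Ecsit, of the same assembly complex, averaged 103 ± 15.1 in Treg KO and 134 ± 3.08 in Treg WT (-0.38, adjusted p = 0.028). Nubpl, which helps place iron-sulfur clusters, averaged 5.65 ± 2.05 in Treg KO and 12.4 ± 2.43 in Treg WT (-1.04, adjusted p = 0.021). In Treg KO libraries 1 read is 1.21 to 2.15 normalised counts, so the level of Nubpl there rests on a few reads. Its Treg KO mean also lies under the 10 counts required for testing. Ndufab1, the acyl carrier subunit of complex I that the symbol rule leaves out, averaged 11.7 ± 2.99 in Treg KO and 14.4 ± 4.09 in Treg WT and did not pass (adjusted p = 0.5). Of its 50-base windows, 31.2% occur in other annotated genes (11 in all), so its counts are uncertain.

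A list of 40 nuclear genes held subunits of complexes II to V, the carrier cytochrome c (Cycs) and the ATP synthase inhibitor Atpif1. Of these 40, 16 were lower (40.0%, where 11.1% of all tested genes were) and 0 higher in Treg KO (median -0.24). In Tconv KO against Tconv WT, 0 of them passed (0.292% of all tested genes were higher and 0.389% lower). In the interaction 4 of the 40 were lower (10.0%, where 0.115% of all tested genes were) and 0 higher. Among the 16 lower in Treg KO were the ATP synthase subunits Atp5e (-1.44, adjusted p = 2.3e-06) and Atp5l (-1.63, adjusted p = 2.7e-06). The cytochrome c oxidase subunit Cox5b (-1.36, adjusted p = 0.00022) was another. Among 13 tested regulators of mitochondrial genes, 3 were higher (23.1%, where 10.4% of all tested genes were) and 2 lower (15.4%, where 11.1% were). Their median was -0.05. Gabpa and Gabpb1, the subunits of the ETS factor that acts on many respiratory genes, were higher (Gabpb1 0.35, adjusted p = 0.03). Gabpa averaged 709 ± 86.0 in Treg KO and 569 ± 35.1 in Treg WT (0.31, adjusted p = 0.019). Pprc1, a coactivator of such genes, was lower, at 489 ± 44.2 in Treg KO and 661 ± 57.9 in Treg WT (-0.43, adjusted p = 0.0023), and so was the nuclear receptor Esrra, at 151 ± 37.2 in Treg KO and 223 ± 14.6 in Treg WT (-0.59, adjusted p = 0.021). Mitochondrial ribosomal proteins had 2 higher and 9 lower of 77 (median -0.16); the 11.7% lower stand beside 11.1% of all tested genes. Cytosolic ribosomal proteins had 1 higher and 56 lower of 74 (75.7%, median -0.81). In Tconv KO against Tconv WT, 16 of these 74 were lower (21.6%, where 0.389% of all tested genes were) and 0 higher.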

How the data were processed

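RNA of 15 libraries from sorted splenic T cells was prepared from 10 ng total RNA (TruSeq RNA kit), per the labels' protocols. TopHat and the mm10 build are named in the submitters' processing notes; read counting and annotation: not given in the sources used here. What was deposited is a normalised signal, and its values step as gene counts divided by 1 size factor per library do. Whole reads were recovered from those steps, with 100% of values whole within 0.001. The kit does not mark strand, so overlapping genes on opposite strands cannot be told apart in these counts.

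Values were tested as log2(value + 1) in limma 3.58.1 (R 4.3.3) with 4 group means over all 15 libraries and a trend on mean level, two-sided, on 11314 genes. Differences are on that scale, which understates changes of low genes. Alternatives were edgeR 4.0.16 and DESeq2 1.42.0 on whole reads, a pseudocount of 8, no filter, TMM scaling, only the groups compared, trends on GC content or length removed (loess, span 0.3), each library left out and, chosen after seeing the data, GC and length trends both removed. Replicate numbers follow accession order and only name samples. GENCODE vM21 gave positions, lengths and GC content; promoter windows came from RefSeq. Figures were drawn with matplotlib 3.10.9. The method was tested on simulated data. Members, lists and tests were chosen with earlier results of these data known. Given library by library are up to 12 members per genotype contrast by smallest adjusted p, the highest and lowest per length, and the X-linked members; up to 4 genes stand for each other list. Reads carry no molecular identifiers. A member that counts and medians include is not reported here by name or drawn.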

Additional observations from a re-analysis of the deposited data

Results flagged for a closer look

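Over the 35 tested members and the 3 groups of 4 libraries, 4 of 105 combinations held a library far from the other 3, where chance flags about 1 in 20. In 3 of them Treg KO replicate 3 lay far below the rest of its group. Ndufs7 stood at 43.1 normalised counts in it and between 162 and 178 in the other Treg KO libraries. Ndufb6 stood at 36.6 in it and between 66.9 and 70.4 in the others. Ndufc1 stood at 6.46 in it and between 25.4 and 26.1 in the others. In Tconv KO replicate 3, Ndufa12 stood at 82.8, above the other Tconv KO libraries at 50.7 to 52.4.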

How the results depend on the processing

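Brackets after a count give the share of all tested genes called in the same direction. In Treg KO against Treg WT, 13 members were lower (11.1%) and 1 higher (10.4%). When only the groups compared were fitted, 5 were lower (6.94%). There were 7 lower with the GC trend removed (7.01%), 8 with the length trend removed (10.0%) and 4 with GC and length trends removed (6.85%). There were 2 higher with DESeq2 (12.9%), 3 with the length trend removed (10.2%) and 3 with GC and length trends removed (6.46%). Leaving out 1 library at a time gave 4 to 14 lower and 1 to 2 higher; there were 4 lower with Treg WT replicate 1 left out, 7 with Treg WT replicate 2 and 6 with Treg WT replicate 4 left out. In the interaction DESeq2 called 1 higher (0.283%). In Treg WT against Tconv WT, fitting only the groups compared gave 4 higher (18.2%) and 1 lower (17.0%). Leaving out libraries gave 0 to 1 higher there (7.21% to 11.7%). In Treg KO against Tconv KO, 3 were higher with edgeR (15.1%), with DESeq2 (16.2%) and without the filter (10.9%). Fitting only the groups compared gave 3 higher (9.502%) and 3 lower (8.55%) there. Leaving out libraries gave 3 to 5 higher (13.3% to 17.9%) and 4 to 8 lower (12.4% to 16.6%) in that contrast. No called member changed sign. The causes of these changes in the counts were not tested. The calls of Ndufv1, Ndufa1, Ndufa2 and Ndufb6 in Treg KO against Treg WT held under all 24 alternatives. No paired analysis was possible because no label ties a Treg sample to a Tconv sample of the same animal, and replicate numbers here only name samples; sample numbers in the labels alternate between Treg and Tconv within a genotype, and a block on that order was not run. Mean depth was lowest in Treg KO, where the members also varied most between libraries.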
